A study of Mus musculus with 7 samples.

Results

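The mRNAs of 8 nucleolar and small nucleolar ribonucleoprotein (snoRNP) proteins were followed in CIRS-seq data of E14 mouse embryonic stem cells (ESCs). The members were taken by gene symbol (Npm1, Ncl, Fbl, Nop56, Nop58, Dkc1, Nop10 and Gar1). All 8 of them were listed in the files, out of 13218 genes in all, and 0 were absent. Together they had 48 listed transcripts, of which 21 were annotated as protein coding, 15 as retained intron, 7 as nonsense-mediated decay and 5 as processed transcript. Nop56 had 19 isoforms, Dkc1 12, Gar1 7 and Npm1 6, whereas Ncl, Fbl, Nop58 and Nop10 had 1 each. The intron-retaining isoforms belonged to 3 members, with 10 in Nop56, 4 in Dkc1 and 1 in Gar1.

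The nucleolus is the nuclear body in which ribosomal RNA is made, modified and assembled with ribosomal proteins. Box C/D snoRNPs guide the methylation of the 2′ hydroxyl of ribosomal RNA and box H/ACA snoRNPs guide the isomerization of uridine to pseudouridine, each through a small nucleolar RNA (snoRNA) that pairs with the target. In mammals most of these guide RNAs are cut out of the introns of host genes, and the host genes often encode proteins of the ribosome or of the snoRNPs themselves.

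CIRS-seq maps the places where reverse transcription (RT) ends on RNA whose unpaired bases have been modified. Dimethyl sulfate (DMS) modifies unpaired A and C. CMCT, the metho-p-toluenesulfonate salt of N-cyclohexyl-N′-(2-morpholinoethyl)carbodiimide, modifies unpaired U and G. The RNA came from a lysate of 1 cell line after protein digestion and was treated at 30 °C with 50 to 200 mM DMS for 2 min, with 10 to 50 mM CMCT for 20 min, or not treated (NT), with the aliquots of each series pooled and 2 biological replicates of each treatment. NT thus gives the RT stops that occur without a reagent, at structured places, at natural modifications and at the ends of RNA molecules. The last 25 bases of every transcript carried no counts.

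Taken once per gene, the total of RT stops was 140186204 to 247369982 per library. A position was called single-place when the 25 bases from it onward occurred once in the mm9 genome, or, across a splice junction, in the transcripts of 1 gene only and never in the genome. Single-place positions held 7.36% to 10.6% of the stops of a library, 12000947 to 21941648 stops, and all values below are from them unless stated otherwise. CPM is the number of stops per 1000000 stops of the library at these positions, after scaling by the trimmed mean of M values (TMM) of edgeR. RNA-seq of the same line, 1 library of 31857551 alignments, gave 16.3 to 221 RPKM (reads per kilobase of exon per 1000000 alignments) for 8 markers of ESCs, and at most 3.10 RPKM for 10 markers of endoderm, mesoderm, neural cells and fibroblasts. At many positions the replicates of a treatment held nearly the same count, which here means at least 50 stops in the pair and a difference under 0.2 times the root of their sum. Such pairs were found at 20.7% of the tested positions of all genes and at 37 of the 627 tested positions of the members (5.90%). The SE and adjusted p given here treat the 2 libraries of a treatment as independent, and whether they are was not tested.

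The share of a member's stops that lay at single-place positions differed widely. It was 98.6% in Nop58, 93.4% in Gar1, 84.0% in Nop56, 72.9% in Ncl, 70.1% in Nop10, 44.9% in Dkc1, 22.9% in Npm1 and 4.76% in Fbl. Fbl therefore rested on 95 of its 1161 positions, and its values below describe that small stretch of the mRNA. The positions with at least 1 stop made up 84.2% of the few single-place positions of Fbl, and between 32.2% (Nop10) and 56.8% (Nop58) in the others.

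The first comparison asked whether the total of RT stops on a member differed from the untreated background. Ncl encodes nucleolin, an abundant nucleolar RNA-binding protein. It had 415 and 395 CPM in NT, 548 and 781 in DMS, and 953 and 987 in CMCT. These are RT stops on RNA treated after lysis, so a difference between treatments is not read as a change in the amount of RNA. All 4 treated libraries lay above both NT libraries, and both CMCT libraries lay above both DMS libraries. The log2 fold change in CMCT was 1.26 (SE 0.28, edgeR's quasi-likelihood test, adjusted p = 0.0367) and that in DMS 0.71 (SE 0.28, adjusted p = 0.14). Ncl in CMCT was the 1 member of 8 past the threshold in that comparison, where 9.55% of all tested genes were called. DESeq2 called 4 members, where it called 16.9% of all genes. The Ncl call was lost without NT replicate 1 (log2 fold change 1.13, adjusted p = 0.18), without NT replicate 2 (1.23, adjusted p = 0.213), without CMCT replicate 2 (1.15, adjusted p = 0.146) and with nearly equal positions left out (1.27, adjusted p = 0.0837).

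In DMS none of the 8 members passed the threshold of edgeR's quasi-likelihood test, where 14.7% of all tested genes were called. An unadjusted p under 0.05 was found for 3 of them, and for 3579 of the 11648 tested genes. DESeq2 called 1 of them, where it called 17.1% of all genes. The other nucleolar protein of the list, nucleophosmin, is the histone chaperone and ribosome assembly factor encoded by Npm1. It had 602 and 345 CPM in NT, 426 and 331 in DMS, and 442 and 322 in CMCT, and the 3 treatments overlapped.

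Of the box C/D proteins, Fbl encodes fibrillarin, the methyltransferase, and Nop56 and Nop58 encode the paired core proteins. Nop58 had 119 and 99.5 CPM in NT, 123 and 112 in DMS, and 190 and 188 in CMCT. Its CMCT libraries lay above the other 4, with a log2 fold change of 0.79 (SE 0.21, edgeR's quasi-likelihood test, adjusted p = 0.0671), and it passed over all positions (0.84, adjusted p = 0.0215) and with DESeq2 (0.68, adjusted p = 0.0092). Nop56 had 475 and 773 in NT, 241 and 381 in DMS, and 334 and 289 in CMCT, so both NT libraries lay above all 4 treated libraries. The log2 fold change was -1.0 in each of DMS (SE 0.35, edgeR's quasi-likelihood test, adjusted p = 0.106) and CMCT (SE 0.35, adjusted p = 0.126), and DESeq2 called both. Fbl had 69 and 95 stops in NT, 119 and 245 in DMS and 81 and 100 in CMCT, before scaling. After scaling it had 5.09 and 9.02 CPM in NT, 7.36 and 17.2 in DMS, and 3.74 and 7.06 in CMCT. On that scale NT overlapped both reagents, and both DMS libraries lay above both CMCT libraries.

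Of the H/ACA proteins, Dkc1 encodes dyskerin, the pseudouridine synthase, and had 196 and 141 CPM in NT, 183 and 192 in DMS, and 238 and 203 in CMCT. Nop10, a small core protein bound to dyskerin, had 116 and 82.5 in NT, 72.7 and 82.7 in DMS, and 67.7 and 56.8 in CMCT, and was the member besides Nop56 whose NT libraries both lay above both CMCT libraries. Gar1, the remaining core protein of the list, had 30.0 and 27.7 in NT, 37.0 and 52.7 in DMS, and 39.6 and 40.3 in CMCT, and both NT libraries lay below the 4 treated ones. None of these 6 differences passed the threshold, with adjusted p of 0.147 to 0.688 (edgeR's quasi-likelihood test).

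**Figure D1:**
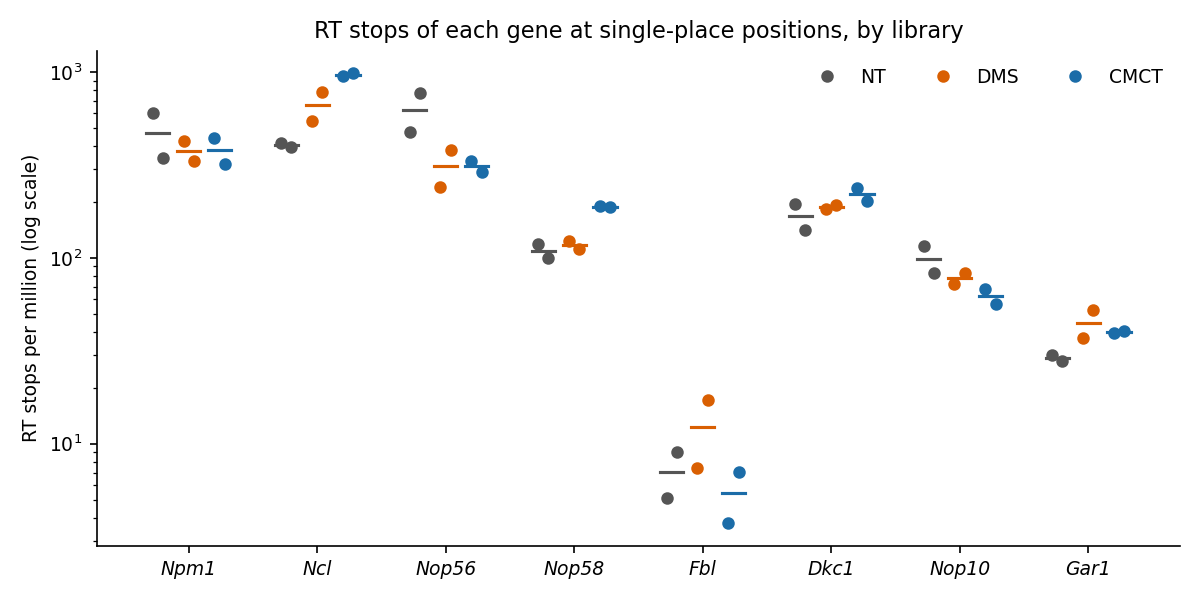
RT stops of each member at single-place positions, in CPM (log scale), by treatment. Points are the 2 replicate libraries and bars their mean. Ncl goes from 415 and 395 in NT to 953 and 987 in CMCT, Nop56 is highest in NT, and Fbl, with 95 single-place positions, is lowest.

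Resolving the stops by base showed which bases the changes lay on. Stops on A rose in DMS in 6 of the 8 members, where 68.3% of all tested genes rose and the median over genes was 1.51 on the log2 scale. The share of the single-place stops of Npm1 that lay on A was 4.79% and 5.62% in NT, 22.2% and 28.0% in DMS, and 10.6% and 12.4% in CMCT. Over all positions of Npm1 it was 11.2% and 13.9% in NT, 35.2% and 44.5% in DMS, and 12.7% and 13.3% in CMCT, where NT and CMCT overlapped. For Ncl the A share was 13.5% and 15.3% in NT and 39.9% and 64.3% in DMS. Gar1 went from 6.14% and 9.59% to 26.4% and 39.3%. In each of these the DMS libraries lay above both NT libraries by more than the replicates differed in NT.

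On the CPM scale, A stops rose by a log2 fold change of 2.76 in Gar1 (SE 0.43, edgeR's quasi-likelihood test, adjusted p = 0.0037), 2.63 in Ncl (SE 0.45, adjusted p = 0.005) and 1.95 in Npm1 (SE 0.31, adjusted p = 0.0039). Dkc1 (1.70, SE 0.33), Nop10 (1.68, SE 0.30) and Nop58 (1.68, SE 0.27) had adjusted p of 0.0074, 0.0058 and 0.0041. The Dkc1 call was lost without NT replicate 2 (1.52, adjusted p = 0.0501) and over all positions (0.78, adjusted p = 0.0905). Fbl had 5 and 14 stops on A in NT and 26 and 99 in DMS, at 2.38 (SE 0.84, adjusted p = 0.069), and it passed over all positions (2.20, adjusted p = 0.00082). Without DMS replicate 1 (3.09, adjusted p = 0.0203), CMCT replicate 1 (2.38, adjusted p = 0.0479) or CMCT replicate 2 (2.32, adjusted p = 0.0223), Fbl A passed as well, whereas it was 0.98 (adjusted p = 0.429) without DMS replicate 2, 1.54 (adjusted p = 0.249) without NT replicate 1 and 3.53 (adjusted p = 0.0654) without NT replicate 2. Nop56 had 761 and 824 stops on A in NT and 1090 and 2153 in DMS, at 0.70 (SE 0.42, adjusted p = 0.234).

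C is the other base that DMS modifies. No member's C stops passed the threshold in DMS, where 7.46% of all tested genes rose and 5.27% fell, 0 of the 8 had an unadjusted p under 0.05, and DESeq2 called 0. The C changes of the members ran from -0.57 in Npm1 to 0.65 in Fbl.

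Stops on the other bases fell in 2 members in DMS. Nop56 fell on G by 1.71 (SE 0.28, edgeR's quasi-likelihood test, adjusted p = 0.0043), from 1478 and 1392 stops to 568 and 551, and on U by 1.87 (SE 0.50, adjusted p = 0.026), from 2764 and 4701 to 995 and 1660. Nop10 fell on G by 1.18 (SE 0.26, adjusted p = 0.0118), from 277 and 223 stops to 141 and 138, and on U by 1.12 (SE 0.30, adjusted p = 0.0265), from 478 and 280 to 272 and 165. Over all tested genes 12.1% fell on G and 18.5% on U, so 2 of 8 members stood near the background on both. With the replicate number as a term of the fit (the replicate block), Nop58 G (-0.72, adjusted p = 0.0497) and Npm1 U (-0.78, adjusted p = 0.0493) passed as well, and Nop58 G also passed over all positions. Of the Nop56 stops on G in NT, 826 of 1478 and 810 of 1392 lay on 1 base (130103750), and with nearly equal positions left out, that base among them, the fall on G was -0.85 (adjusted p = 0.048). The Nop56 U call was lost without NT replicate 2 (-1.16, adjusted p = 0.151) and without DMS replicate 1 (-1.48, adjusted p = 0.124). Both Nop10 calls were lost without NT replicate 2 (G -1.11, adjusted p = 0.0683, and U -1.26, adjusted p = 0.0602) and without DMS replicate 2 (G -1.25, adjusted p = 0.0587, and U -0.88, adjusted p = 0.165). Nop10 G was also lost without DMS replicate 1 (-1.10, adjusted p = 0.0678) and Nop10 U without NT replicate 1 (-1.02, adjusted p = 0.102).

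In CMCT, U stops rose in 2 of the 8 members, where 11.4% of all tested genes rose. Ncl had 1999 and 1646 stops on U in NT and 8506 and 5643 in CMCT, at 1.38 (SE 0.31, edgeR's quasi-likelihood test, adjusted p = 0.0382). Gar1 had 123 and 69 in NT and 387 and 264 in CMCT, at 1.22 (SE 0.26, adjusted p = 0.0324). Nop58 U went from 552 and 353 to 1862 and 1256 and was not past the threshold (1.23, SE 0.34, adjusted p = 0.0665), but it passed over all positions (1.29, adjusted p = 0.0241) and with DESeq2 (1.23, adjusted p = 0.0125).

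G stops in CMCT moved in opposite directions in 2 members, where 3.26% of all tested genes rose and 4.72% fell. Ncl rose on G from 1113 and 914 to 4161 and 3051 (1.27, SE 0.28, edgeR's quasi-likelihood test, adjusted p = 0.034). Nop10 fell on G from 277 and 223 to 166 and 83 (-1.62, SE 0.26, adjusted p = 0.0128). All 4 of these CMCT calls were lost with nearly equal positions left out, where 0 of the bases of all genes passed edgeR's adjusted threshold, 10274 had an unadjusted p under 0.05, and their adjusted p were 0.0569 to 0.1. The log2 fold changes were then 1.35 for Ncl U, 1.19 for Gar1 U, 1.45 for Ncl G and -1.65 for Nop10 G, each of the same sign as before. That setting takes away positions whose replicates agree closely. The Ncl and Gar1 calls were also lost without any 1 of NT replicate 1, NT replicate 2, DMS replicate 1, DMS replicate 2 or CMCT replicate 2, with adjusted p of 0.0624 to 0.215 and log2 fold changes of 1.01 to 1.43. The Nop10 G call was lost without NT replicate 2 (-1.59, adjusted p = 0.0734) and without CMCT replicate 2 (-1.52, adjusted p = 0.0514).

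**Figure D2:**
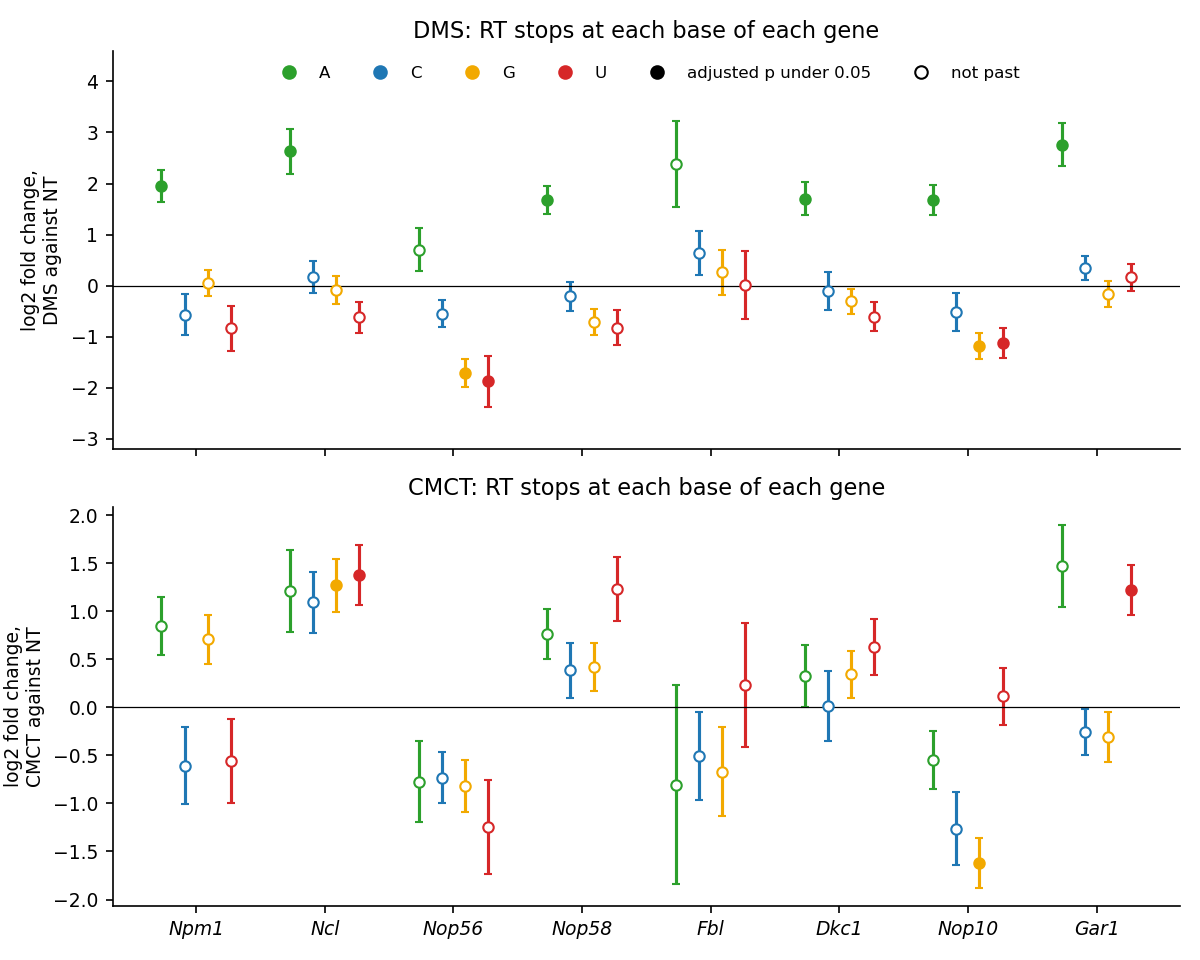
Log2 fold change of RT stops against NT at the A, C, G and U positions of each member, in DMS (top) and CMCT (bottom), with the standard error of the fit. Filled points passed an adjusted p of 0.05, and in DMS the A points lie above the other bases of the same gene in all 8 members.

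Within an mRNA, the position with the most NT stops and the position with the largest rise in each reagent were followed by sequence. In the windows below, the capital is the base that carries the stops, 14 bases stand on either side where the isoform allows, T stands for U, and coordinates are mm9. The windows are shown so that the modified base can be read in its context. A window marked as spliced joins adjacent exons, and the others are contiguous in the genome. The positions for Npm1, on chromosome 11 at 33052287 to 33063206 of the minus strand, were these:
Npm1 5′ UTR, most stops in NT, chr11:33063063-33063091: gagcccgcgtccttTccttggcgtgattc
Npm1 codon 85, largest rise in DMS, spliced, chr11:33060911-33061123: atgtctgtacaaccAacagtttccctagg
Npm1 codon 87, largest rise in CMCT, spliced, chr11:33060905-33061117: gtacaaccaacagtTtccctagggggctt

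The U in the 5′ UTR (position 33063077) had 1936 and 476 stops in NT, 932 and 484 in DMS, and 1039 and 208 in CMCT, and the 3 treatments overlapped. This base is also the annotated 5′ end of 1 of the shorter Npm1 isoforms. It held 23.7% and 13.1% of the 8156 and 3629 single-place stops of Npm1 in NT, where all positions together held 18965 and 10067. The A of codon 85 (33061109) had 0 and 1 stops in NT, 57 and 43 in DMS, and 7 and 4 in CMCT. Its ratio of DMS to NT was 79.2 (95% interval 13.9 to 3158, counting error only), and the log2 fold change was 6.03 (SE 0.73). The U of codon 87 (33060919) had 2 and 0 stops in NT, 4 and 6 in DMS, and 44 and 18 in CMCT. Its log2 fold change in CMCT was 4.22 (SE 0.80). The A reached the stops that the test required through DMS alone and the U through CMCT alone, so these values are a description. Among the tested positions, the 2 reagents thus gave their largest rises at bases 6 apart in the spliced mRNA, the A in DMS and the U in CMCT. Both windows cross the same splice junction. Only 95 of the 879 coding bases were single-place and 40 coding positions were tested, which limits where a largest rise could lie.

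Ncl lies on chromosome 1 at 88241294 to 88256030 of the minus strand. Its windows show that, among the tested positions, the largest rise in each reagent lay within a few codons of the other:
Ncl 5′ UTR, most stops in NT, chr1:88255927-88255955: ctcagtcttttgccTcagacgctagctgt
Ncl codon 124, largest rise in DMS, chr1:88253777-88253805: ccaactcctggtaaAaagggagctgccac
Ncl codon 117, largest rise in CMCT, chr1:88253800-88253828: ctgcacaagcaaaaGcgttggtaccaact

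The U in the 5′ UTR (88255941) had 319 and 333 stops in NT, 117 and 111 in DMS, and 319 and 158 in CMCT. It fell in DMS by 1.87 on the log2 scale (SE 0.44). This U was chosen for its NT stops, so the fall is a description. The A of codon 124 (88253791) had 0 and 0 stops in NT, 27 and 92 in DMS, and 5 and 3 in CMCT, at least 31.4-fold higher in DMS than a floor of 3 counts over both NT libraries. The G of codon 117 (88253814) had 0 and 0 in NT, 13 and 4 in DMS, and 77 and 46 in CMCT, at least 27.5-fold higher in CMCT. The A reached the stops that the test required through DMS alone and the G through CMCT alone, so these rises are a description. The G was chosen for a rise over the same NT libraries, so its stops in DMS are a description too. Neither base had a stop in NT.

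Nop56 lies on chromosome 2 at 130100166 to 130105049 of the plus strand. The first pair of windows shows where the untreated stops gathered, and the others where each reagent gave its largest rise:
Nop56 retained intron, most stops in NT, chr2:130103417-130103445: cctaccttggcagcTtctacaatgatggt
Nop56 retained intron, second most stops in NT, chr2:130103736-130103764: gtgccagaaagactGttggaaaggatgaa
Nop56 in SNORA51, largest rise in DMS, chr2:130102036-130102051: tAaacctaccccatgt
Nop56 codon 210, largest rise in CMCT, chr2:130102216-130102244: atgacaacgccacaTactgtcgcttggct

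The U at 130103431 had 1383 and 3783 stops in NT, 152 and 767 in DMS, and 481 and 67 in CMCT. All 4 treated libraries lay below both NT libraries, but the spread was wide (DMS -2.87, SE 1.19, edgeR's quasi-likelihood test, adjusted p = 0.143). This U was chosen for its NT stops, so its lower values in the reagents are a description. The G at 130103750, chosen after its values were seen, had 826 and 810 in NT, 128 and 127 in DMS, and 545 and 504 in CMCT, and fell in DMS by 3.03 (SE 0.45, adjusted p = 0.0083). This call was lost without DMS replicate 1 (-2.95, adjusted p = 0.0536) and without DMS replicate 2 (-3.12, adjusted p = 0.0561), and its DMS pair is nearly equal, so the setting that leaves such positions out does not hold it. Each lay 2 bases before the annotated start of a box C/D snoRNA, SNORD56 and Snord57, and these positions alone held 21.5% and 46.5% (the U) and 12.8% and 9.95% (the G) of the NT stops of Nop56. The A inside SNORA51 (130102037) had 0 and 0 stops in NT, 50 and 200 in DMS, and 3 and 1 in CMCT, at least 66.0-fold higher in DMS. It reached 50 stops through DMS alone, and these counts are a description. It is the second base of 1 intron-retaining isoform, which is why the window is short. The U of codon 210 (130102230) had 10 and 4 stops in NT, 39 and 17 in DMS, and 135 and 83 in CMCT. Its ratio in CMCT was 10.5 (log2 fold change 3.39, SE 0.56). It was chosen among the positions called in CMCT, so these values are a description.

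For Nop58 (chromosome 1, 59741853 to 59768968, plus strand) and for the H/ACA members Dkc1 (chromosome X, 72341193 to 72355116, plus strand) and Nop10 (chromosome 2, 112102083 to 112103426, plus strand), the bases that stood out were in the coding region and the 3′ UTR:
Nop58 codon 342, largest rise in CMCT, chr1:59762539-59762567: aatatggacttattTatcatgcttctctt
Dkc1 3′ UTR, most stops in NT, chrX:72354203-72354231: gttctggtatacttTtagctgccacttgt
Dkc1 codon 413, largest rise in DMS, chrX:72351685-72351713: ccctgccacatggaAacaggattacattg
Dkc1 3′ UTR, largest rise in CMCT, chrX:72355031-72355059: attcctgttagattTactatgataatctt
Nop10 codon 49, largest rise in DMS, chr2:112102546-112102574: accgaatcaccatcAagaaacgcttcaag

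The U of Nop58 codon 342 (59762553) had 0 and 1 stops in NT, 4 and 2 in DMS, and 41 and 35 in CMCT (log2 fold change 5.44, SE 0.78). It reached the stops that the test required through CMCT alone, and these values are a description. Only 2 A positions of Nop58 were tested, beside 20 on U. Of any base, 2 positions were called higher in DMS, 1 on C and 1 on U. The position followed as the largest rise in DMS was the U of codon 258 (59761046). It had 1 and 2 stops in NT, 12 and 10 in DMS, and 60 and 54 in CMCT. Over the single-place bases of Nop58, stops in DMS changed by 1.68 on A and by -0.82 on U (log2). The log2 fold change of the U of codon 258 was larger in CMCT (4.61, SE 0.54) than in DMS (2.44, SE 0.57). The difference between the reagents was not tested. The U of codon 258 was chosen among the positions called in DMS and reached the required stops through CMCT. Its rises in both reagents are a description.

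In Dkc1 the U in the 3′ UTR (72354217) had 37 and 36 stops in NT, 2 and 2 in DMS, and 28 and 24 in CMCT. It fell in DMS by 4.46 on the log2 scale (SE 0.46). The base was chosen for its NT stops, so this fall is a description. Its NT pair is nearly equal, and the setting without such positions leaves it out. The A of codon 413 (72351699) had 0 and 0 in NT, 35 and 41 in DMS, and 3 and 3 in CMCT, at least 20.1-fold higher in DMS. It reached 50 stops through DMS alone, and these counts are a description. A U near the end of the 3′ UTR (72355045) had 0 and 0 in NT, 0 and 0 in DMS, and 27 and 28 in CMCT, so it reached the 50 stops that the test required through CMCT alone, and these counts are given as a description.

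In Nop10 the A of codon 49 (112102560) had 2 and 2 stops in NT, 26 and 23 in DMS, and 4 and 2 in CMCT, a ratio of 9.70 in DMS (log2 fold change 3.21, SE 0.43). The C next to it on the 5′ side (112102559) had the most NT stops of Nop10, with 180 and 18 in NT, 45 and 27 in DMS, and 134 and 20 in CMCT, and replicate 1 lay above replicate 2 in each treatment. The U of codon 15 (112102223) had 3 and 2 in NT, 3 and 4 in DMS, and 33 and 24 in CMCT (2.90, SE 0.43). The A of codon 49 reached the required stops through DMS alone and this U through CMCT alone, so their values are a description. Gar1 (chromosome 3, 129527830 to 129534314, minus strand) and Fbl (chromosome 7, 28954765 to 28964288, plus strand) had 3 and 1 tested positions, and none was past the threshold. The most NT stops of Gar1 were 0 and 27 on a C of the 5′ UTR (129534060), all from replicate 2, and those of Fbl were 24 and 3 on a C of the 5′ UTR (28954794).

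Over all members, 627 positions held the 50 stops in the 6 libraries together that the test required, 270 of them in Ncl, 121 in Npm1, 95 in Nop56, 61 in Dkc1, 42 in Nop58 and 34 in Nop10. A base that is high in 1 reagent passes this filter through that reagent, so the counts describe the tested positions and not the whole mRNAs. In DMS 91 positions were higher than in NT and 51 lower, where 13% of the positions of all genes were higher and 9.29% lower. With the total of each gene as the offset of the fit, the counts were 63 and 55, where 16679 and 18577 of 146600 positions of all genes were. Fewer positions were called higher without NT replicate 1, NT replicate 2 or CMCT replicate 2, in the members and over all genes. Fewer were called lower without any 1 NT or DMS replicate, again in both. On A, 76 of 146 (52.1%) were higher, where 42.6% of the A positions of all genes were. With the total of each gene as the offset, 52 of the 146 were higher, and no share over all genes was taken for A alone. Of the 85 tested A positions of Ncl 44 were higher, and of the 31 of Npm1 20.

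On U, 3 of 228 member positions were higher in DMS and 27 lower, where 3.91% and 14.1% of the U positions of all genes were. Fewer U positions were called lower without any 1 NT or DMS replicate, where fewer positions of any base were called lower over all genes. In CMCT 69 positions were higher and 15 lower, where 6.47% and 3.41% of the positions of all genes were. The total of each gene as the offset gave 37 higher and 26 lower, where 11745 and 11946 of 146600 positions of all genes were. On U, 37 of 228 (16.2%) were higher, where 9.78% were over all genes. Of these, 23 lay in Ncl, and without Ncl 14 of 144 (9.72%) were higher, near the background. With the total of each gene as the offset, 21 of the U positions were higher and 6 lower, and no share over all genes was taken for U alone. On G 12 of 75 were higher, 10 of them in Ncl, where 4.56% were over all genes. With nearly equal positions left out, 45 of 132 A positions were higher in DMS and 0 of 590 positions in CMCT, where 0 positions of all genes passed edgeR's adjusted threshold and 28406 had an unadjusted p under 0.05. Without any 1 NT or CMCT replicate the CMCT calls were also lost, in the members and over all genes. Many positions of all genes kept an unadjusted p under 0.05 in edgeR's test there. Fewer A positions were called higher in DMS without either NT replicate, where fewer positions of any base were called higher over all genes.

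The called positions were also counted by part of the mRNA. In Ncl all 51 positions higher in DMS and all 45 higher in CMCT lay in the coding region, among 245 tested there, where 7 were lower in DMS. Of the 24 tested in the 5′ UTR of Ncl 6 were lower in DMS. In Npm1 14 of 40 tested coding positions and 9 of 38 in the 3′ UTR were higher in DMS, and in the 5′ UTR 7 of 36 were lower. In Nop56, 5 of 18 tested snoRNA positions were higher in DMS and 2 lower, and of 11 in the retained introns 6 were lower and 0 higher. Over the positions of all genes, in any part, 13% were higher and 9.29% lower in DMS, and 6.47% were higher in CMCT. The difference between parts was not tested.

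Stops were also taken as the share on each part of the mRNA. The Npm1 5′ UTR, taken up to the 5′ end of the longest coding isoform, held 73.9% and 72.4% of the stops of the gene in NT, 47.0% and 42.3% in DMS, and 38.5% and 30.4% in CMCT. Its coding region had 653 and 409 CPM per kilobase in NT, 1128 and 874 in DMS, and 1330 and 971 in CMCT. Without the 5′ UTR, the main coding isoform of Npm1 had 142 and 80.6 CPM in NT, 211 and 178 in DMS, and 253 and 202 in CMCT. On these bases both NT libraries lay below all 4 treated ones, whereas the 3 treatments overlapped in the total of Npm1. The exons of its other isoforms had 22.5 and 20.9 CPM per kilobase in NT, 21.3 and 19.1 in DMS, and 27.9 and 32.4 in CMCT, and there NT overlapped DMS. This alternative was chosen after seeing the data, and over all positions the 5′ UTR held 36.5% and 32.6% of the stops in NT, since 95 of the 879 coding bases were single-place.

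In Ncl the 5′ UTR held 24.2% and 28.5% of the stops in NT, 7.81% and 5.15% in DMS, and 9.02% and 7.45% in CMCT, so both NT libraries lay above all 4 treated ones. The coding region of Ncl had 160 and 142 CPM per kilobase in NT, 283 and 427 in DMS, and 469 and 497 in CMCT. Its annotated 3′ UTR of 5901 bases had 9.17 and 8.49 in NT, 6.25 and 5.10 in DMS, and 15.9 and 15.7 in CMCT. RNA-seq over the same 3′ UTR gave 0.358 reads per base, below the 1.29 over the coding region.

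**Figure D3:**
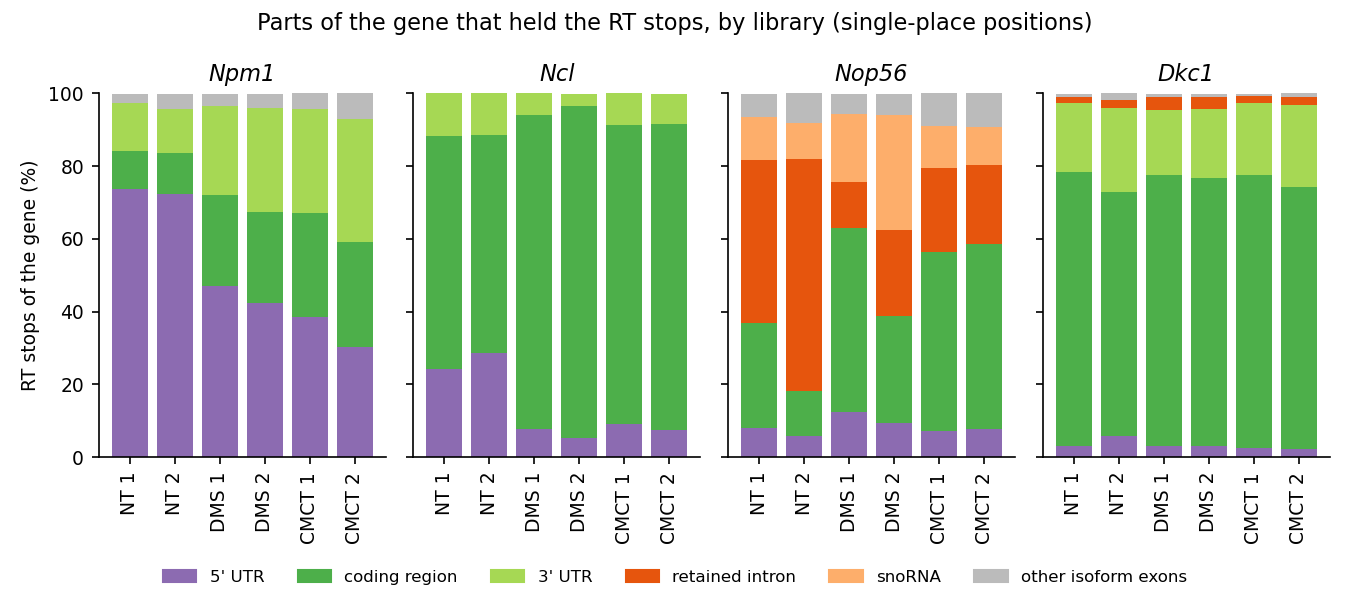
Percent of the RT stops of Npm1, Ncl, Nop56 and Dkc1 on each part of the gene, in each library, at single-place positions. The 5′ UTR share of Npm1 falls from 73.9% and 72.4% in NT to 30.4% at the lowest in CMCT, and the retained-intron share of Nop56 from 44.9% and 63.8% in NT to 12.7% at the lowest in DMS.

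The intron-retaining isoforms differed between the members that have them. Retained introns of Nop56, 1197 bases outside any coding isoform or snoRNA, held 2891 and 5196 stops in NT, 496 and 1290 in DMS, and 1665 and 884 in CMCT. As a share of Nop56 stops these were 44.9% and 63.8%, 12.7% and 23.8%, and 23.0% and 21.6%, so both NT libraries lay above all 4 treated ones. The bases at 130103431 and 130103750 held most of these stops in NT, and without both of them, an alternative chosen after seeing the data, the introns held 16.1% and 17.0% of the stops in NT, 5.96% and 8.74% in DMS, and 10.3% and 8.88% in CMCT. The snoRNA sequences inside these isoforms held 11.8% and 9.83% in NT, 18.8% and 31.5% in DMS, and 11.6% and 10.6% in CMCT, so this share was highest in DMS. Their level in NT overlapped that in DMS, with 293 and 396 CPM per kilobase in NT, 236 and 624 in DMS, and 202 and 159 in CMCT, where both CMCT libraries lay below the others.

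For Dkc1 the retained introns, 1065 bases, held 1.62% and 2.02% of the stops in NT, 3.41% and 3.36% in DMS, and 1.74% and 2.43% in CMCT. Over all positions, with the same stops in the introns and more in the rest of the gene, the shares were 0.741% and 0.613% in NT, 1.58% and 1.29% in DMS, and 0.953% and 1.13% in CMCT. The retained intron of Gar1 had 0 stops in all 6 libraries on 58 bases. Most of the isoforms shared their bases with others. Of the 10 intron-retaining isoforms of Nop56, the longest (3627 bases) had 336 bases on no other isoform, with 4879 single-place stops over all libraries. An isoform of 571 bases that begins inside SNORA51 had 3202 on 136 such bases. Those of 350 and 320 bases had 52 and 25. The intron-retaining isoforms of Dkc1 had 16 to 295 stops on bases of their own. In Nop56, 6 had no base of their own, and stops on shared bases could not be assigned to single isoforms. In RNA-seq the Nop56 retained introns had 0.336 reads per base, against 2.26 over the coding region, and those of Dkc1 0.107 against 1.22.

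Restricted to its main coding isoform, Nop56 had 175 and 141 CPM in NT, 152 and 148 in DMS, and 189 and 170 in CMCT. Without the positions 2 bases before the starts of SNORA51, SNORD56 and Snord57, the whole gene had 312 and 336 in NT, 224 and 318 in DMS, and 287 and 249 in CMCT. On the main isoform NT overlapped both reagents, whereas in the total of the gene both NT libraries lay above the treated ones, and without those positions DMS replicate 2 lay between the NT libraries. Both alternatives were chosen after seeing the data.

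Around the snoRNAs the stops formed sharp edges. In the 30 bases before SNORD56, the single position 2 bases before its start held 89.1% and 93.4% of the stops in NT, 83.1% and 75.3% in DMS, and 92.9% and 72.0% in CMCT. Before Snord57 the corresponding shares were 67.4% and 74.5% in NT, 63.4% and 71.8% in DMS, and 55.3% and 72.3% in CMCT. The edge was thus present at the same place in every library. Reads of an intron-retaining mRNA, of the excised intron and of the snoRNA carry the same bases here, and cannot be told apart in these counts.

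**Figure D4:**
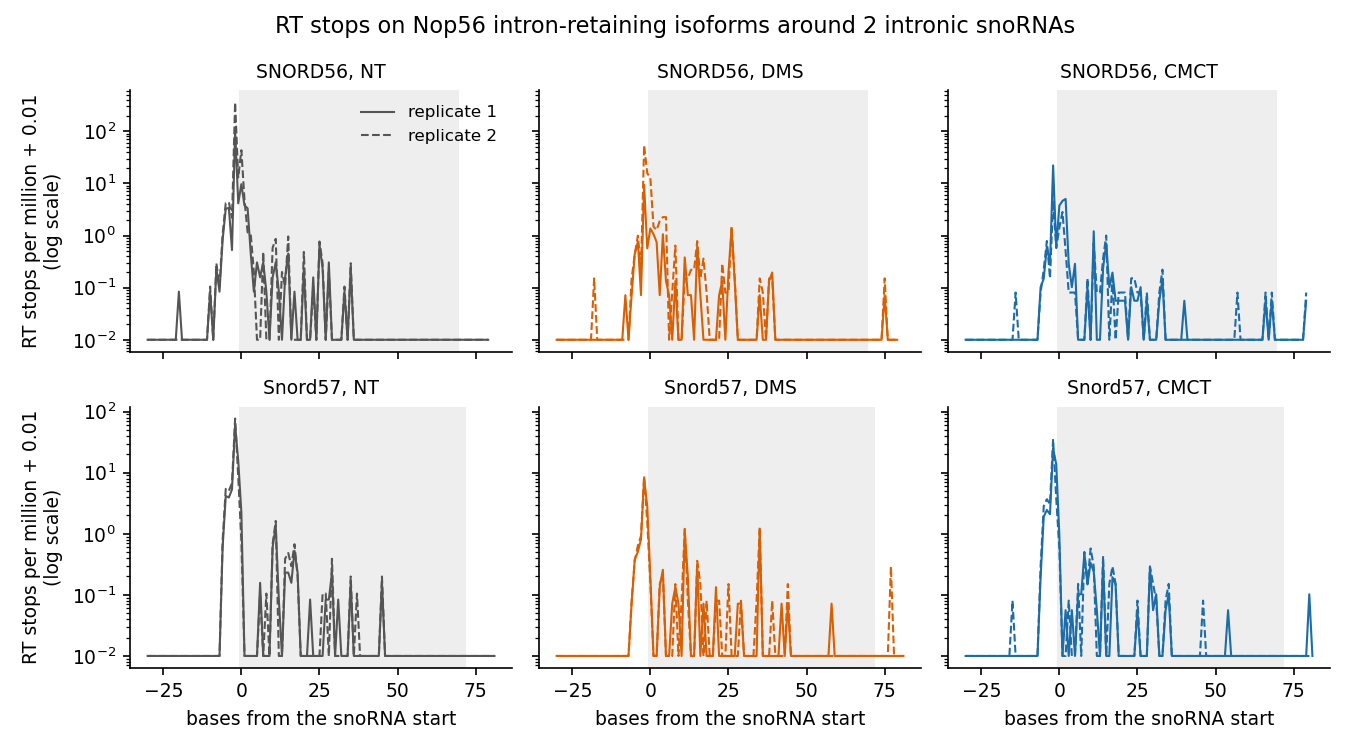
RT stops in CPM (log scale, 0.01 added) on Nop56 isoforms around SNORD56 (top) and Snord57 (bottom), against the distance from the annotated start of the snoRNA in bases, for each treatment and replicate. The grey area is the snoRNA, and the peak stands 2 bases before its start in all 6 libraries.

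The annotation places 12 snoRNAs inside members on the same strand, 4 each in Nop56 and Nop58, 3 in Ncl and 1 in Dkc1. Box C/D snoRNAs carry the names SNORD or Snord and box H/ACA snoRNAs the names SNORA or Snora. All but SNORD20 were listed as transcripts of their own, without their last 25 bases. The stops given for them are raw counts on the snoRNA's own transcript at all its positions, not scaled for depth. SNORA51 in Nop56 had 1360 and 996 stops in NT, 1278 and 3583 in DMS, and 2188 and 782 in CMCT, and its treatments overlapped.

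In Ncl, Snora75 had 114 and 56 stops in NT, 233 and 374 in DMS, and 141 and 77 in CMCT, and was highest in DMS. Snord70, the first snoRNA of Nop58, had 223 and 202 in NT, 55 and 59 in DMS, and 239 and 124 in CMCT, and was lowest in DMS. SNORA36 in Dkc1 had 62 and 61, 38 and 37, and 142 and 141, also lowest in DMS. SNORA51 also had the most RNA-seq reads, 3.50 per base, whereas the others had 0.0254 to 0.752 per base. The treatments of these snoRNAs were not compared by a test.

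In 5 of the 8 members the protein carries runs of acidic residues or of glycine and arginine, and the codons of those runs were compared with the rest of the same coding region. Acidic runs here hold at least 8 aspartate or glutamate residues in 10, and glycine and arginine rich runs at least 7 of those residues in 10. Nop56, Dkc1 and Nop10 had no run of either kind at these thresholds. In Ncl the acidic runs (339 bases, 242 of them single-place) had 0.398 and 0.489 stops per A in NT, 2.80 and 11.2 in DMS, and 2.59 and 2.78 in CMCT. The rest of its coding region had 1.20 and 0.894 in NT, 6.51 and 12.6 in DMS, and 4.92 and 3.40 in CMCT. DMS replicate 2 stood above replicate 1 in the acidic runs by more than in the rest.

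In the glycine and arginine rich run of Ncl, the A positions had 0.429 and 0.464 stops each in NT and 1.36 and 2.82 in DMS. That of Gar1 had 0.0656 and 0.0984 in NT and 0.377 and 0.869 in DMS, against 0.156 and 0.0556 and 0.978 and 1.86 in the rest of its coding region. In both genes the A positions of the glycine and arginine rich runs held fewer stops in DMS than those of the rest. In Ncl they also held fewer in NT, where the rest had 1.20 and 0.894, whereas in Gar1 the NT values overlapped. Stops per base in these runs are not scaled for depth. The acidic run of Npm1 had 3.71 and 1.43 stops per A in NT and 20.7 and 12.3 in DMS, on 7 single-place A positions, beside 4.96 and 2.21 and 18.3 and 14.9 in the rest. Nop58 had 1 and 0 stops on A in its acidic run in NT and 3 and 4 in DMS, and Fbl 0 and 0 in NT and 2 and 20 in DMS in its glycine and arginine rich run. Differences between runs and the rest were not tested.

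RNA-seq placed the members over a wide range of abundance. Npm1 had 313 RPKM and rank 59 among 19241 protein-coding genes with a read, whose median was 0.764 RPKM. Nop58 followed with 50.6 RPKM (rank 361), Nop56 with 39.9 (449), Dkc1 with 24.8 (785), Nop10 with 19.4 (1007), Ncl with 18.9 (1029) and Fbl with 15.4 (1292). Gar1 was lowest with 2.60 RPKM (rank 6182). There is 1 RNA-seq library, so these values have no replicate check, and the RPKM of Ncl divides by a length of 8257 bases of which 5901 are the sparsely read 3′ UTR. Every alignment spanned 50 genomic bases, so reads across splice junctions are missing from the RPKM and from the reads per base given here. An mRNA with more exons can lose more of them, and Nop58 has 15 exons where Nop10 has 2. In such a bulk library, fewer cells with an RNA and less of it per cell cannot be told apart.

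Over single-place coding bases, Npm1 had 20.8 RNA-seq reads per base, Nop58 2.18, Nop56 2.05, Nop10 1.43, Ncl 1.34, Dkc1 1.27, Fbl 0.288 and Gar1 0.0875. RT stops in NT at the same bases were highest for Npm1 (653 and 409 CPM per kilobase) and Nop10 (594 and 345), then Ncl (160 and 142), Nop56 (140 and 97.1) and Dkc1 (112 and 72.4). Nop58 (62.1 and 50.4), Fbl (33.6 and 50.3) and Gar1 (23.5 and 21.1) were lowest. Npm1 and Nop10 overlapped in NT, and so did Nop56 with Dkc1, whereas Gar1 lay below all others and Fbl just below Nop58. Nop10 thus had more stops per coding base than Nop56 and Nop58 at a lower RNA-seq level.

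**Figure D5:**
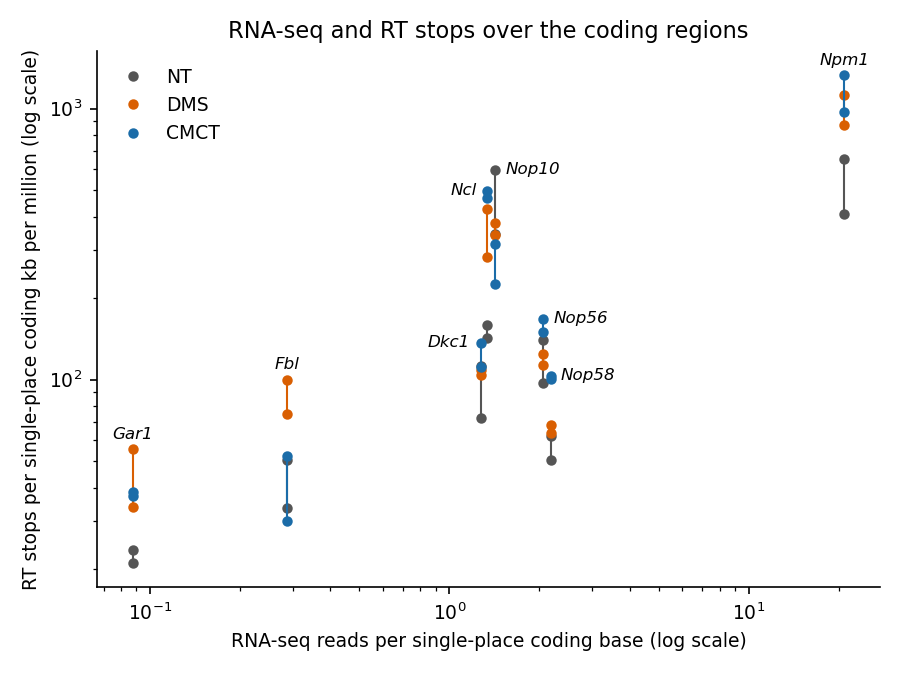
RT stops in CPM per single-place coding kilobase in each CIRS-seq library (log scale) against RNA-seq reads per single-place coding base (log scale), for each member. Points are libraries, joined within a treatment. Gar1 is lowest on both axes in NT. Npm1 is highest in RNA-seq reads and overlaps Nop10 in NT stops. Nop10 stands above Nop58 in RT stops at 1.43 against 2.18 reads per base.

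For each member the protein-coding gene with the most similar profile over the 6 libraries was taken by the root mean square difference of log2 CPM, each centred on its own mean. These were Rfc1 for Nop58 (0.03), Mysm1 for Dkc1 (0.03), RP24-90K1.5 for Gar1 (0.04), Prdx2 for Npm1 (0.06), Dctpp1 for Nop10 (0.10), Lgr5 for Nop56 (0.14), Hnrnpa1 for Fbl (0.16) and Ncl's nearest, Syncrip (0.17). The search covered 2597 to 7397 genes per member, and the profiles share libraries and depth.

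Other genes of the same pathways were described from 2 lists. Of 15 snoRNP proteins and assembly factors 11 were in the files, and 0 were higher and 1 lower in each comparison (over all genes, 10.4% were higher and 4.28% lower in DMS, and 7.13% and 2.41% in CMCT). The lower one was Nhp2l1, which encodes the 15.5K protein that binds the kink-turn of box C/D snoRNAs, with 21.4 and 20.0 CPM in NT, 12.1 and 8.43 in DMS, and 9.37 and 9.39 in CMCT. It fell by 1.01 in DMS (SE 0.25, edgeR's quasi-likelihood test, adjusted p = 0.0387) and by 1.14 in CMCT (SE 0.25, adjusted p = 0.0338). Both calls were lost over all positions (-0.31, adjusted p = 0.406, in DMS and -0.22, adjusted p = 0.574, in CMCT), with nearly equal positions left out (-0.91, adjusted p = 0.0845, and -1.05, adjusted p = 0.0891), and without NT replicate 1 or NT replicate 2 (adjusted p of 0.144 to 0.169). The DMS call was also lost without DMS replicate 1 (-1.30, adjusted p = 0.0675) or DMS replicate 2 (-0.77, adjusted p = 0.244), and the CMCT call without CMCT replicate 2 (-1.22, adjusted p = 0.0993). An unadjusted p under 0.05 was found for 2 genes of the list in DMS and 5 in CMCT, and DESeq2 called 2 and 3. The median log2 fold changes of the list were -0.07 in DMS and 0.02 in CMCT, beside 0.11 and 0.10 over all genes. Of 45 ribosome biogenesis and nucleolar factors 36 were tested and 0 were called by edgeR in each comparison, with medians of -0.17 in DMS and 0.37 in CMCT. An unadjusted p under 0.05 was found for 2 of them in DMS and 11 in CMCT, and DESeq2 called 3 and 4. Over all 11648 genes tested by edgeR, 3579 in DMS and 3381 in CMCT had an unadjusted p under 0.05, and DESeq2 called 17.1% and 16.9% of genes.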

How the data were processed

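CIRS-seq (6 libraries: NT, DMS and CMCT, 2 biological replicates each) and RNA-seq (1 library) were measured in E14 mouse ESCs. RNA was depleted of ribosomal RNA and reverse transcribed from random hexamers. The authors deposited raw counts of RT stops at each transcript position of each library, without normalization, and single RNA-seq alignments to mm9. Files of both replicates combined were not used. The submitters' processing notes name Bowtie 1.0.0, TopHat2 2.0.6, FastQC 0.10.1 and bedtools 2.17.0. The paper maps to mm9 carrying E14 variants, whereas the sequences printed are of the mm9 reference. How reads with several places in the genome were treated is not given in the sources used here.

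Transcripts were matched to GENCODE vM1 (26792 of 26827), and a genomic position shared by isoforms was counted 1 time for its gene, at the highest count of its isoforms. Single-place positions are the main set, since these mRNAs share sequence with other places of the genome. Counts per gene, per gene and base, and per position (at least 50 stops over 6 libraries) were each tested in 1 fit of edgeR 4.0.16 over the whole table (R 4.3.3, TMM factors, filterByExpr, quasi-likelihood test, Benjamini-Hochberg at 0.05), with DESeq2 1.42.0 as an alternative. The fits were run on simulated counts with 200 changed features, drawn with 1 common spread and with independent libraries. Independence was not tested in the data, so that run does not check the calls given here. RNA-seq alignments were assigned by their midpoint to the exons of 1 gene (69.96% of alignments). The main coding isoform is the one with the longest coding region. Python 3.11.15, NumPy 2.4.6, pandas 2.3.3, SciPy 1.17.1, numba 0.67.0 and matplotlib 3.10.9 were used.

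The rule takes the members by symbol, but the members, the lists and the tests were chosen with earlier results of these data known. Named positions are the 1 with the most NT stops and the 1 with the largest rise in each reagent per member, among those called and above both NT libraries in both treated ones. Bounds against 0 counts use a floor of 3 counts over both NT libraries, and intervals are exact 95% intervals. Both cover counting error only. Total depth at single-place positions was 12000947 to 21941648 stops per library.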

Additional observations from a re-analysis of the deposited data

How the results depend on the processing

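Counts of calls over all genes, gene bases and positions depended on the libraries kept. Genes called in DMS numbered 1707, and 0 to 3496 when 1 library was left out. In CMCT they numbered 1112, and 34 to 3067. Without NT replicate 2, 0 genes passed edgeR's test in DMS and 2418 had an unadjusted p under 0.05. Gene bases numbered 12786 in DMS (6615 to 16557 with 1 library left out) and 3729 in CMCT (644 to 7354), and positions 32629 in DMS (13109 to 29803) and 14486 in CMCT (0 to 14450). Over all positions the 6 counts were 3485 and 3827 genes, 18646 and 11451 gene bases, and 193748 and 79736 positions. With nearly equal positions left out, an alternative chosen after seeing the data, they were 736 and 116 genes, 10982 and 0 gene bases, and 11187 and 0 positions, with 10274 gene bases and 28406 positions at an unadjusted p under 0.05 in CMCT. At least 100 stops gave 16393 positions in DMS and 9345 in CMCT, and each gene's total as the offset 35256 and 23691. DESeq2 called 1983 and 2000 genes, and without a filter on low counts 1726 and 1143 were called.

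The split of calls moved with the scaling. Of genes called, 70.8% were higher in DMS and 74.7% in CMCT, against 60.8% and 49.95% with DESeq2 (median of all genes 0.11 and 0.10 with edgeR, 0.002 and -0.010 with DESeq2) and 52.5% and 51.8% over all positions. Of gene bases called in CMCT 66.6% were higher, against 58.3% with DESeq2 and 50.6% over all positions, and in DMS 69.6% against 55.6% over all positions. Of positions called 58.3% were higher in DMS and 65.5% in CMCT, against 47.3% and 49.6% with each gene's total as the offset, and 54.7% in CMCT over all positions.

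No source used here says that a replicate number marks a shared batch or day. Over genes, the deviations of same-numbered libraries from their group means correlated at 0.42 for NT with DMS, at -0.03 for NT with CMCT, and at 0.02 for the reagents with each other. The replicate block gave 2313 and 1527 genes, 14838 and 4941 gene bases, and 39627 and 20464 positions, and with it Nop58 (0.79, adjusted p = 0.0458) and Nop58 U (1.25, adjusted p = 0.0483) passed in CMCT, and Fbl A (2.27, adjusted p = 0.0056), Nop58 G (-0.72) and Npm1 U (-0.78) in DMS. Ncl C (1.11, adjusted p = 0.0422) and Gar1 A (1.51, adjusted p = 0.0483) passed in CMCT too.

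Of the members' gene totals, A in DMS, U in CMCT and called bases, none past the threshold changed sign. Those not past it that did were, over all positions, Dkc1 in DMS (-0.12), Npm1 in DMS (0.66), Npm1 in CMCT (0.82), Fbl in CMCT (0.42) and Npm1 U in CMCT (0.93), and with nearly equal positions left out Nop10 U in CMCT (-0.016). With 1 library left out the values that changed sign ranged from -0.012 to 0.29 for Dkc1 in DMS, from -0.62 to 0.018 for Npm1 in DMS, from -1.0 to 0.078 for Fbl in CMCT, from -0.070 to 0.17 for Nop10 U in CMCT and from -0.63 to 1.17 for Fbl U in CMCT. Their other base values, none past the threshold, changed sign in 20 cases of a value and a setting in DMS and in 12 in CMCT. DESeq2 called Nop56 in DMS (-1.14) and CMCT (-1.14), Nop10 in CMCT (-0.77) and Nop58 in CMCT (0.68). Taking all positions moved 65 of 96 shares by part and 30 of 96 by base by more than the replicate spread, and taking the first base of a read moved 2 of 8 RNA-seq levels beyond their 95% interval. Fbl rests on 95 single-place positions, and 3 positions of Gar1 were tested. Where causes are not shown by a setting's own construction, the cause was not tested.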
